A study of Mus musculus with 16 samples.

Results

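The synaptic vesicle and release machinery was followed through 34 genes of the presynaptic terminal, of the 24060 genes listed for each library. The members are a list of symbols grouped by known role or family. There are 10 genes of the vesicle membrane and its surface, and 6 genes of the synaptotagmin and Doc2 families. A further 8 belong to the SNARE complex and its regulators, and 5 are scaffolds and priming factors of the active zone. The rest are 2 transporters that load vesicles with glutamate, and 3 genes of vesicle retrieval. Cortical tissue from 16 mice of 8 to 9 months was profiled by 3' mRNA sequencing, 4 mice per genotype with 2 females and 2 males in each, all on a strain given as C57BL/6; C3. Controls were TREM2+/+ and carried no P301S. The other 3 genotypes all carried P301S, a mutant tau transgene, and differed in Trem2, a microglial receptor gene: P301S+ TREM2+/+, P301S+ TREM2+/- (heterozygotes) and P301S+ TREM2-/- (knockouts). No control group without P301S but with reduced Trem2 was analysed here, so that a Trem2 difference is measured only on the P301S background. Neither the promoter behind the transgene nor the deleted stretch of Trem2 is named in the labels.

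At a presynaptic terminal, transmitter is pumped into synaptic vesicles, vesicles dock at the active zone, and calcium entry triggers their fusion. Fusion is driven by the SNARE proteins, synaptobrevin on the vesicle and syntaxin and SNAP-25 on the plasma membrane. Synaptotagmin senses the calcium, complexin clamps and primes the complex, and the ATPase NSF with its SNAP adapters takes spent complexes apart. The membrane is then retrieved by endocytosis and refilled. Because these genes are expressed mainly by neurons, their RNA in a piece of cortex moves both with the number of neurons and with the RNA each one holds, and in these bulk samples fewer cells of a type and less RNA per cell cannot be told apart. Loss of synapses is a known feature of mutant tau mice.

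Read depth ranged from 2.55 to 14.47 M reads per library, where M is 1e+06 reads. Trem2 itself ranged from 14.3 to 34 RPKM, a read number scaled to gene length in kilobases and to library size, in P301S+ TREM2+/+ mice, from 4.50 to 25.2 in heterozygotes, from 1.44 to 3.75 in knockouts and from 7.35 to 20.2 in controls. Every knockout lay below every other library. Control replicate 3, a female, stood apart from the rest of the series. Its score on the first principal component (52.4% of the variance) was -130.8 against -18.8 or above in the other 15 libraries, its Rn45s reads were 4.448% of the total against 1.14% to 2.758%, and its small nucleolar RNAs reached 749.3 reads per M against 19.6 to 65.6. The 2 P301S+ TREM2+/+ females, replicates 1 and 2, stood apart on the second component (14.6%) at -45 and -41.3, against -12.5 or above elsewhere. Results are therefore given with and without control replicate 3, and some results that rest on the 2 females are also given without them. Members without such a value may still depend on these libraries. The labels name no batch, litter or preparation day, and p-values measure the spread between these libraries.

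The departure of control replicate 3 ran through the presynaptic genes. For 24 of the 33 members with a mean of at least 1 RPKM, its value lay outside the range of the other 15 libraries, 13 of them higher and 11 lower. Among all 12015 genes with such a mean, 24.9% were higher and 41.6% lower in the same sense. The library was high for Syp, Sv2a, Sv2b, Syngr1, Syt4, Vamp2, Cplx1, Napb, Pclo, Rims1, Erc2, Slc17a7 and Dnm1. It was low for Syn1, Syn2, Syngr3, Rab3a, Syt1, Syt11, Snap25, Vamp1, Nsf, Bsn and Synj1. The members did not move as a block in it: Vamp2, the vesicle SNARE, was at 1509 RPKM against 110.4 to 226 elsewhere, while its partner Snap25 was at 419 against 1291 to 1551 in the other controls.

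**Figure D1:**
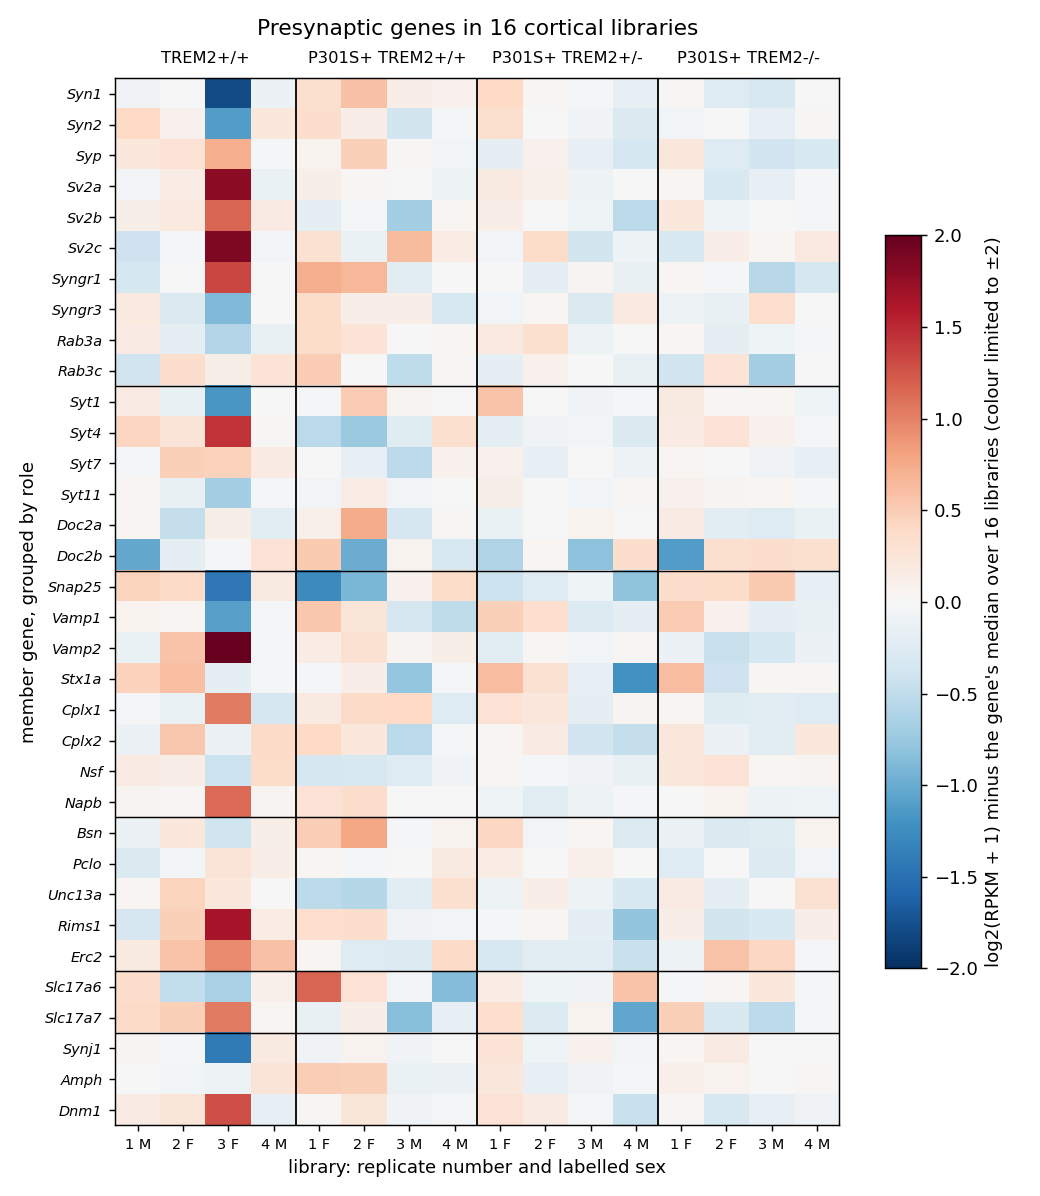
Each row is a member gene grouped by role and each column a library, with colour giving log2(RPKM + 1) minus the gene's median over the 16 libraries. Control replicate 3 holds most of the strongest colours, and the 2 P301S+ TREM2+/+ females share pale red in Syngr1, Bsn and Amph and blue in Snap25 and Syt4.

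Promoters were looked up for what the members share apart from their role. Of the 34 members, 27 had an entry in the RefSeq promoter table (GRCm38.p6), with 35 promoters between them. Over the 250 bases before the start of transcription, the member promoters had a median of 12 CpG dinucleotides and 58.8% GC, against 6 and 52.4% over all 32851 promoters of the table. The GC box GGGCGG, searched on both strands, was in 18 of the 35 (51.43%) against 32.74% of all. The cyclic AMP response element TGACGTCA was in 1 (Syn1), against 1.55% of all, and the TATA box TATAAA in 2, both of Sv2b, or 5.71% against 12.37%. No motif here contains another, and a match describes the letters only. The background was not limited to genes expressed in these libraries, and a gene with several starts counts more than once. The promoters of Syn1 and Sv2b are shown because these were the 2 members whose values did not overlap between P301S+ TREM2+/+ mice and controls. Both genes lie on the minus strand, the sequences run 5′ to 3′ along the transcript strand, and capitals mark the element in Syn1 and, read on the opposite strand, the TATA box in Sv2b.
Syn1 promoter, chrX:20920919-20921168, minus strand, GRCm38.p6: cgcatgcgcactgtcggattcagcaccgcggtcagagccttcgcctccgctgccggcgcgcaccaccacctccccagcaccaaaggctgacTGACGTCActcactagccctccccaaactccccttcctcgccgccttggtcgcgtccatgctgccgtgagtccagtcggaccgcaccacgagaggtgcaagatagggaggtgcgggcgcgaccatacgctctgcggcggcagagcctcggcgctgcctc
Sv2b promoter, chr7:75309263-75309512, minus strand, GRCm38.p6, the most upstream of 4 listed starts: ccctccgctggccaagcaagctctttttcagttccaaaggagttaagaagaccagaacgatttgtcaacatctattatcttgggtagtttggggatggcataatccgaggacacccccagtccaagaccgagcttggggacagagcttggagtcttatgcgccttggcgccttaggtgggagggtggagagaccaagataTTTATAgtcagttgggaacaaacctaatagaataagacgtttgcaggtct

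Differences were tested with limma on log2(RPKM + 1) with the 4 genotypes and sex in 1 model, and every adjusted p-value below is a Benjamini-Hochberg value over all genes tested. Of the 34 members 33 could be tested. The exception was Sv2c, a vesicle glycoprotein gene of few neurons, with 0.254 to 1.57 RPKM in 15 libraries and 5.08 in control replicate 3. No member passed an adjusted p of 0.05 in any of the 6 pairwise comparisons of genotypes. Of all genes, 0.00832% passed for complete loss and 0% in the other comparisons. In the test for any difference among the 4 genotypes no member passed either (all genes, 0%). Leaving out control replicate 3 gave the same count of 0. All genes then passed at 0.0418% for the P301S effect, 0% for partial loss, 0.117% for complete loss, 0.0167% for complete against partial loss, 0.0251% and 0.00835% for heterozygotes and knockouts against controls, and 0.0668% for any difference. By unadjusted p under 0.05, 4 members differed among the 4 genotypes against 7.95% of all genes, and 7 without control replicate 3 against 17.7%. The 4 were Erc2, Syp, Syt4 and Slc17a7. The members together took 2.23% to 2.46% of the reads in controls, 2.1% to 2.48% in P301S+ TREM2+/+ mice, 1.96% to 2.58% in heterozygotes and 2.13% to 2.43% in knockouts, so these ranges overlapped throughout. The pairwise comparisons share libraries, and their values are therefore set side by side without a measure of their agreement.

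In P301S+ TREM2+/+ mice against controls, the members split evenly, with 16 positive and 17 negative log2 differences and a median of -0.08, against 0.06 over all genes. By unadjusted p under 0.05, Syn1 was higher, against a background of 9.12% of all genes, and Syt4, Sv2b, Erc2, Syt7 and Slc17a7 were lower, against a background of 4.67%. None passed the adjusted test, in which 0% of all genes passed. By role, 6 of the 8 SNARE genes and regulators were on the lower side, with a median log2 difference of -0.23, while the 9 vesicle genes divided into 5 positive and 4 negative (median 0.05). With control replicate 3 left out, the median over all members was -0.01 against 0.01 for all genes, and the SNARE group had 6 negative of 8 with a median of -0.23. By unadjusted p, 1 member (Syn1) was then higher, against 10.1% of all genes, and 7 lower, against 11.1%. The ranges of the genotypes did not overlap for Syn1 (higher, against 3.55% of all genes) and Sv2b (lower, against 1.27%). After control replicate 3 was left out, Nsf joined them on the lower side, against 7.27% of all genes higher and 5.07% lower.

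**Figure D2:**
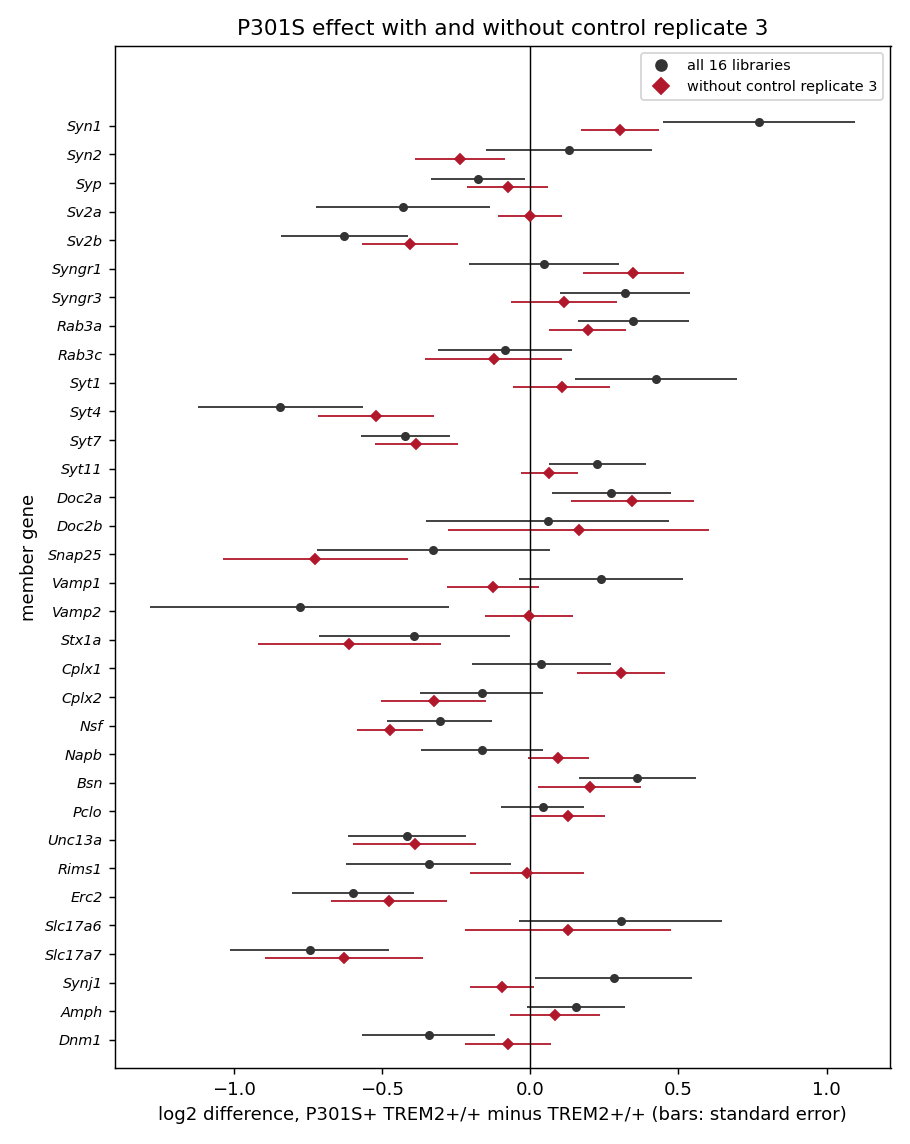
Points give each member's log2 difference between P301S+ TREM2+/+ mice and controls and bars its standard error, with all 16 libraries (grey circles) and without control replicate 3 (red diamonds). The Syn1 value shrinks from 0.77 to 0.30 and Vamp2 moves from -0.78 to close to 0, while Nsf moves from -0.31 to -0.47.

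Among the vesicle genes, Syn1 (chromosome X, 20860511 to 20920918, GRCm38) encodes synapsin I, which tethers vesicles in the reserve pool. It read 83.3, 88.3, 24.6 and 81.2 RPKM in controls 1 to 4, 110.4, 132, 96.3 and 92.8 in P301S+ TREM2+/+ mice, 116, 89.4, 85.7 and 77.9 in heterozygotes and 89.1, 73.6, 69.9 and 87.3 in knockouts. All 4 P301S+ TREM2+/+ mice lay above all controls and above all knockouts, with the 2 females highest, and the heterozygotes overlapped both. The log2 difference from controls was 0.77 (SE 0.32, adjusted p = 0.328), and 0.30 (SE 0.13, adjusted p = 0.21) without control replicate 3, whose value was the lowest of the series. Knockouts differed from P301S+ TREM2+/+ mice by -0.42 (SE 0.32, adjusted p = 0.685), by the same amount with an SE of 0.12 and an adjusted p of 0.079 without control replicate 3, and by -0.17 without the 2 females. Syn1 overlaps exons of Araf on the opposite strand, and whether reads were counted by strand is not known. Syn2, which encodes synapsin II, ranged from 148 to 251 RPKM outside control replicate 3 (87.2). In the other libraries the knockouts (169 to 192) lay below the controls (201 to 251), as did 2.51% of all genes. The log2 difference was then -0.31 (SE 0.15, adjusted p = 1.0).

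Sv2b, a vesicle glycoprotein gene, read 54.8, 58.0, 115 and 56.8 RPKM in controls, 43.9, 49.3, 31.1 and 52.3 in P301S+ TREM2+/+ mice, 55.6, 50.4, 47.6 and 35.1 in heterozygotes and 59.0, 47.7, 50.9 and 49.7 in knockouts. The 4 P301S+ TREM2+/+ values lay below all controls, by a narrow gap outside control replicate 3, and overlapped both Trem2-reduced genotypes. The log2 difference from controls was -0.63 (SE 0.21, adjusted p = 0.269), and -0.41 (SE 0.16, adjusted p = 0.185) without control replicate 3. Its relative Sv2a stayed between 93.5 and 131 RPKM in 15 libraries and stood at 399 in control replicate 3.

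Syp, which encodes the abundant vesicle protein synaptophysin, read 71.8, 76.1, 104 and 61.1 RPKM in controls, 65.0, 86.7, 63.1 and 59.5 in P301S+ TREM2+/+ mice, 54.2, 66.3, 55.1 and 48.6 in heterozygotes and 72.5, 51.5, 47.4 and 49.9 in knockouts. Heterozygotes and knockouts lay mostly below controls, but 1 library of each overlapped them. The log2 difference from controls was -0.45 (SE 0.16, adjusted p = 0.497) in heterozygotes and -0.48 (SE 0.16, adjusted p = 0.45) in knockouts. With control replicate 3 aside, the values were -0.35 and -0.38 (adjusted p = 0.499 and 0.92). Syngr1, which encodes the vesicle protein synaptogyrin 1, read 86.3, 82.5, 43.7 and 51.8 RPKM in P301S+ TREM2+/+ mice and 52.8, 50.5, 34.8 and 40.8 in knockouts. The 2 P301S+ TREM2+/+ females were above every other library except control replicate 3 (131). Rab3a, a vesicle GTPase gene, ranged from 593 to 876 RPKM outside control replicate 3 (454), and its difference with the smallest p, with all libraries, was 0.35 (SE 0.19, adjusted p = 0.408) against controls in P301S+ TREM2+/+ mice, and 0.19 (adjusted p = 0.405) without control replicate 3. Rab3c (31.0 to 72.3 RPKM) and Syngr3 (40.4 to 97.5 RPKM) overlapped between all genotypes.

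Among the synaptotagmin and Doc2 genes, Syt4 is induced by activity. It read 124, 109.7, 252 and 93.4 RPKM in controls, 62.8, 54.2, 77.3 and 115 in P301S+ TREM2+/+ mice, 81.0, 87.7, 88.3 and 74.6 in heterozygotes and 102, 111, 97.0 and 89.8 in knockouts. The heterozygotes lay below all controls and below all knockouts, whereas the P301S+ TREM2+/+ mice overlapped all 3 other genotypes, with their females lowest and their males higher. The log2 difference from controls was -0.84 (SE 0.28, adjusted p = 0.269) in P301S+ TREM2+/+ mice, and -0.52 (adjusted p = 0.17) without control replicate 3. It was -0.35 without the 2 P301S+ TREM2+/+ females and -0.16 without all 3 libraries. Syt1, the main fast calcium sensor of release, read 1407, 1138, 559 and 1248 RPKM in controls, 1242, 1786, 1301 and 1253 in P301S+ TREM2+/+ mice, 1877, 1264, 1193 and 1228 in heterozygotes and 1419, 1279, 1299 and 1188 in knockouts. All genotypes overlapped, P301S+ TREM2+/+ replicate 2 and heterozygote replicate 1 stood high, and the lowest value was control replicate 3. Its difference from controls was 0.42 (SE 0.27, adjusted p = 0.486) in P301S+ TREM2+/+ mice and 0.33 (SE 0.27, adjusted p = 0.518) in knockouts, and 0.11 and 0.01 (adjusted p = 0.738 and 1.0) once control replicate 3 was left out.

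Syt7, a slower calcium sensor, was at 65.0 to 92.4 RPKM in controls, 45.8 to 70.2 in P301S+ TREM2+/+ mice, 58.9 to 69.8 in heterozygotes and 59.1 to 67.7 in knockouts. Its log2 difference in P301S+ TREM2+/+ mice changed little without control replicate 3, from -0.42 (SE 0.15, adjusted p = 0.283) to -0.38 (SE 0.14, adjusted p = 0.164), but the ranges overlapped. Syt11, another synaptotagmin gene, was steady at 289.9 to 359 RPKM in 15 libraries, with control replicate 3 at 201. Doc2a and Doc2b, sensors of spontaneous release, were at 2.03 to 11.4 RPKM in all libraries and rest on as few as 35 reads in a library.

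In the SNARE complex, Snap25 (chromosome 2, 136713439 to 136782428), the plasma membrane SNARE anchored by its lipid tails, varied widely between individual mice. It read 1551, 1476, 419 and 1291 RPKM in controls, 468, 604, 1209 and 1465 in P301S+ TREM2+/+ mice, 839, 944, 1065 and 652 in heterozygotes and 1442, 1470.1, 1626 and 1008 in knockouts. The 3 lowest libraries were control replicate 3 and the 2 P301S+ TREM2+/+ females, all female. Both P301S+ TREM2+/+ males lay in the range of the knockouts. Against the other 3 controls, the male at 1465 lay within their range and the male at 1209 below it. The heterozygotes lay below those controls. The log2 difference between knockouts and P301S+ TREM2+/+ mice was 0.70 (SE 0.39, adjusted p = 0.559), and 0.70 (SE 0.29, adjusted p = 0.159) without control replicate 3. With the P301S+ TREM2+/+ females left out as well it was -0.02. Heterozygotes differed from the controls by -0.29 (SE 0.39, adjusted p = 0.724) and, without control replicate 3, by -0.69 (SE 0.31, adjusted p = 0.55).

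Vamp2, which encodes synaptobrevin 2, read 138, 226, 1509 and 149 RPKM in controls, 168, 186, 157 and 164 in P301S+ TREM2+/+ mice, 131, 154, 146 and 153 in heterozygotes and 139, 110.4, 119 and 139 in knockouts. Both Trem2-reduced genotypes lay below all P301S+ TREM2+/+ mice, and all 3 overlapped the 3 usual controls. The log2 difference in knockouts from P301S+ TREM2+/+ mice was -0.42 (SE 0.50, adjusted p = 0.808), and without control replicate 3 its SE was 0.14 and its adjusted p 0.0976. The difference from controls of -1.19 (SE 0.50, adjusted p = 0.45) shrank to -0.42 (adjusted p = 0.92) without that library. Vamp1, a second synaptobrevin gene, was at 34.9 to 73.7 RPKM outside control replicate 3 (23.1), and its 2 females were above its 2 males in each P301S genotype.

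Stx1a, which encodes syntaxin 1A, read 115, 127, 73.4 and 81.2 RPKM in controls, 82.0, 91.1, 48.3 and 80.9 in P301S+ TREM2+/+ mice, 128, 103, 74.4 and 35.2 in heterozygotes and 128, 61.9, 85.3 and 84.1 in knockouts. All genotypes overlapped, and heterozygote replicate 4 was lowest. Its difference from controls in P301S+ TREM2+/+ mice was -0.39 (SE 0.32, adjusted p = 0.576), and -0.61 (SE 0.31, adjusted p = 0.269) without control replicate 3. Cplx1 (complexin 1) was at 209 to 346 RPKM outside control replicate 3 (542), and Cplx2 (complexin 2) at 92.1 to 197 in all libraries. Knockouts differed from heterozygotes by -0.26 in Cplx1 (SE 0.23, adjusted p = 1.0).

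Nsf (chromosome 11, 103821782 to 103954056) encodes the ATPase that recycles SNARE complexes. It read 504, 495, 332 and 582 RPKM in controls, 356, 362, 375 and 428 in P301S+ TREM2+/+ mice, 456, 444, 428 and 406 in heterozygotes and 528, 551, 461 and 467 in knockouts. Outside control replicate 3, P301S+ TREM2+/+ mice were lowest, heterozygotes overlapped them, and knockouts lay above both and overlapped the controls. The P301S effect was -0.31 (SE 0.18, adjusted p = 0.441), and -0.47 (SE 0.11, adjusted p = 0.106) without control replicate 3. Complete Trem2 loss gave 0.40 (SE 0.18, adjusted p = 0.482), and 0.40 (SE 0.10, adjusted p = 0.0734) without that library. With array weights, which let limma give less weight to aberrant libraries, Nsf passed the threshold in both comparisons, at -0.49 (adjusted p = 0.0479; 0.682% of all genes lower) and 0.41 (adjusted p = 0.0459; 3.92% of all genes higher). Both comparisons use the same 4 P301S+ TREM2+/+ libraries, of which the 2 females were lowest. The males, at 375 and 428, also lay below all knockouts. Without array weights and without those females, the lowest adjusted p of any member was 0.999 in both comparisons. With control replicate 3 left out too, it was 0.763 for the P301S effect. The Nsf differences without the females are not reported here. Napb, a SNAP adapter gene of neurons, read 194, 191, 413 and 195 RPKM in controls, 228, 238, 187 and 188 in P301S+ TREM2+/+ mice, 177, 161, 174 and 182 in heterozygotes and 186, 196, 175 and 176 in knockouts. The heterozygotes lay below all P301S+ TREM2+/+ mice and all controls, with a log2 difference of -0.27 from the former (adjusted p = 0.434 without control replicate 3).

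**Figure D3:**
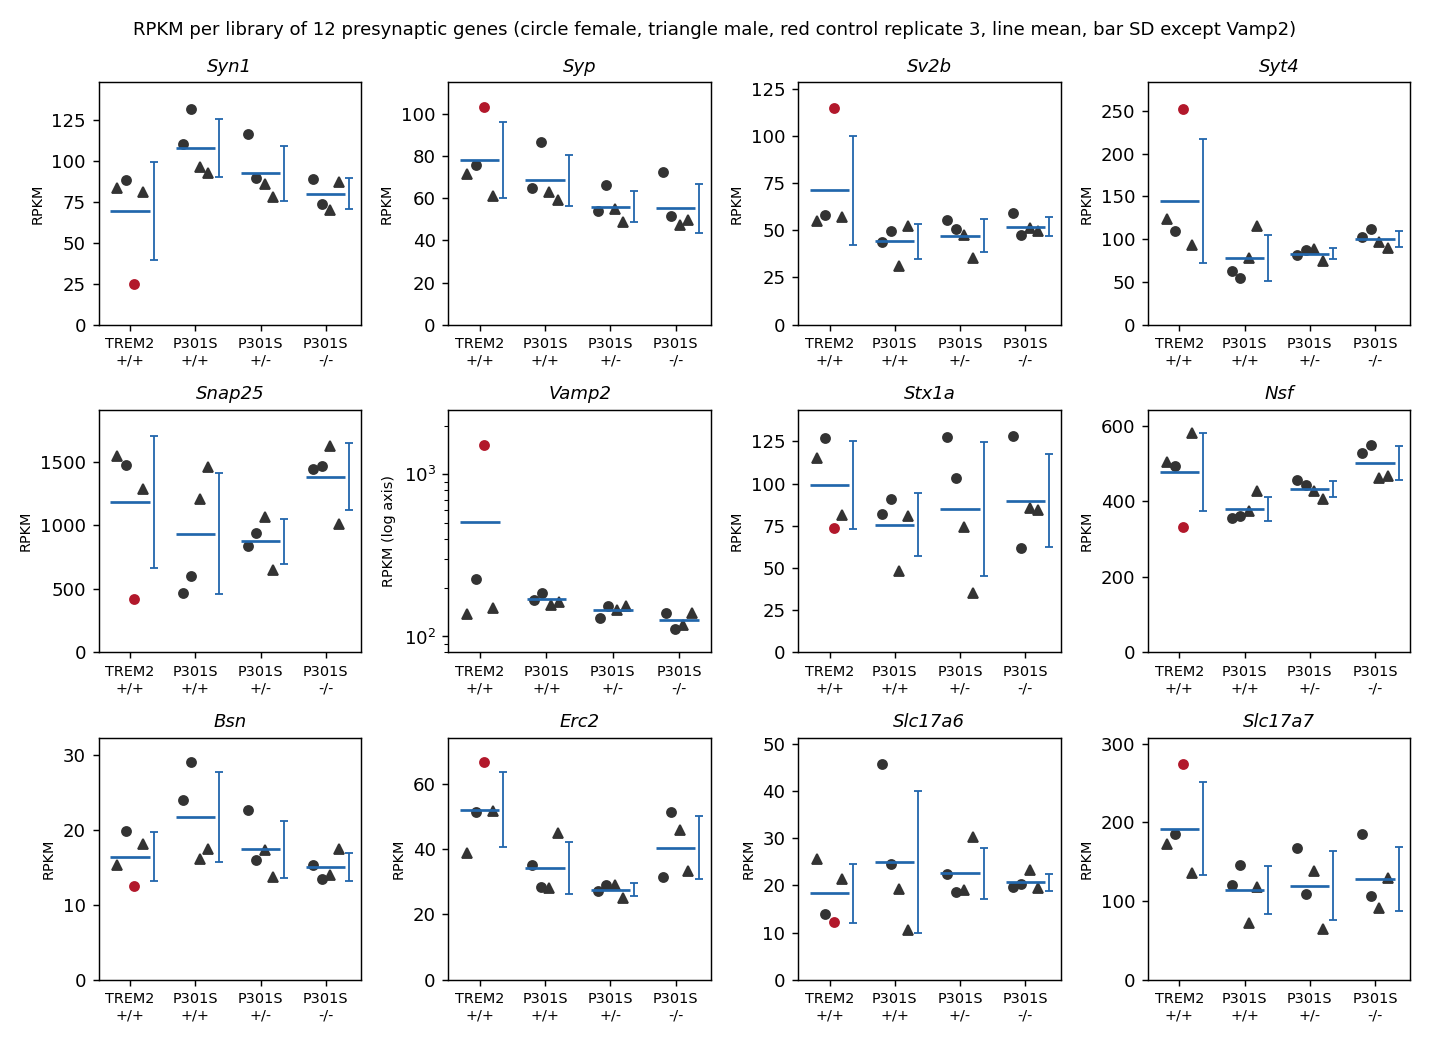
RPKM of 12 members in each library by genotype (TREM2+/+ without P301S, then P301S with TREM2+/+, +/- and -/-), with circles for females, triangles for males, control replicate 3 in red, lines for means and bars for the SD (n = 4) in all panels but Vamp2, which has a log axis. In Snap25 the 2 P301S+ TREM2+/+ females sit at 468 and 604 beside males at 1209 and 1465, and in Nsf the knockouts (461 to 551) lie above the P301S+ TREM2+/+ mice (356 to 428).

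At the active zone, Erc2 (chromosome 14, 27622275 to 28478537), a scaffold gene of the ELKS/CAST family, read 38.7, 51.4, 66.6 and 51.7 RPKM in controls, 35.1, 28.4, 27.9 and 45 in P301S+ TREM2+/+ mice, 27.0, 29.1, 29.0 and 24.9 in heterozygotes and 31.6, 51.2, 45.9 and 33.2 in knockouts. The heterozygotes were tightly grouped and lay below all controls and all knockouts, and they overlapped the P301S+ TREM2+/+ mice. Their log2 difference from controls was -0.87 (SE 0.21, adjusted p = 0.482), and -0.75 (SE 0.20, adjusted p = 0.322) without control replicate 3. It passed the threshold with array weights (-0.76, adjusted p = 0.044; 0.466% of all genes lower) and with voom quality weights on the recovered reads (-0.78, adjusted p = 0.0381; 0.741% of all genes lower). Knockouts differed from heterozygotes by 0.51 (SE 0.21, adjusted p = 1.0).

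Bsn, which encodes the large scaffold Bassoon, read 15.3, 19.8, 12.5 and 18.2 RPKM in controls, 24, 29.1, 16.2 and 17.5 in P301S+ TREM2+/+ mice, 22.7, 16, 17.3 and 13.7 in heterozygotes and 15.4, 13.5, 13.9 and 17.5 in knockouts. All genotypes overlapped, and the 2 P301S+ TREM2+/+ females were the highest of the series. The difference from controls was 0.36 (SE 0.20, adjusted p = 0.417), 0.20 (adjusted p = 0.521) without control replicate 3, and -0.02 without it and those females. Complete Trem2 loss gave -0.47 (SE 0.20, adjusted p = 0.465), and -0.17 without the females. Pclo, which encodes Piccolo, the other giant scaffold, was at 11.5 to 17.4 RPKM in all libraries. Unc13a, the vesicle priming factor Munc13-1, was at 5.37 to 12 RPKM, and its 2 lowest values were the P301S+ TREM2+/+ females at 5.64 and 5.37. Rims1, which links vesicles to calcium channels, was at 7.23 to 18.9 RPKM outside control replicate 3 (43.9).

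For glutamate loading, Slc17a7 (VGLUT1, the main transporter of cortical excitatory terminals) read 172, 185, 274 and 136 RPKM in controls, 119.8, 145, 72.7 and 118 in P301S+ TREM2+/+ mice, 167, 109, 139 and 64.0 in heterozygotes and 185, 107, 91.7 and 129 in knockouts. P301S libraries lay mostly below the controls, and each of the 3 P301S genotypes overlapped them. The log2 difference from controls was -0.74 (SE 0.27, adjusted p = 0.288) in P301S+ TREM2+/+ mice, -0.71 (SE 0.27, adjusted p = 0.497) in heterozygotes and -0.58 (SE 0.27, adjusted p = 0.45) in knockouts. Without control replicate 3 the values were -0.63, -0.60 and -0.47 (adjusted p = 0.208, 0.55 and 1.0). Slc17a6 (VGLUT2, best known from thalamic terminals and cells) read 25.6, 13.9, 12.3 and 21.4 RPKM in controls, 45.7, 24.6, 19.1 and 10.5 in P301S+ TREM2+/+ mice, 22.3, 18.7, 18.9 and 30.2 in heterozygotes and 19.6, 20.3, 23.3 and 19.4 in knockouts. The P301S+ TREM2+/+ mice spread over more than the range of the other 3 genotypes, and all genotypes overlapped. The difference from controls was 0.31 (SE 0.34, adjusted p = 0.688), 0.13 (adjusted p = 0.862) without control replicate 3, and -0.47 without the P301S+ TREM2+/+ females.

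In vesicle retrieval, Dnm1, the neuronal dynamin that cuts vesicles from the membrane, read 50.9, 53.6, 112 and 39.9 RPKM in controls, 45.8, 53.5, 42.9 and 44.3 in P301S+ TREM2+/+ mice, 55.5, 50.5, 43.7 and 32.8 in heterozygotes and 46.0, 35.9, 40.2 and 42.8 in knockouts. All genotypes overlapped. Knockouts differed from controls by -0.52 (SE 0.22, adjusted p = 0.45), and by -0.25 (SE 0.15, adjusted p = 1.0) without control replicate 3. Amph (amphiphysin) stood at 144 and 142 RPKM in the P301S+ TREM2+/+ females and at 90.8 to 122 in all other libraries. Synj1 (synaptojanin 1, a lipid phosphatase that uncoats vesicles) was at 125 to 159 RPKM outside control replicate 3 (49.0).

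Loss of 1 Trem2 allele on the P301S background was compared next. Of the 33 members 14 were positive and 19 negative, with a median of -0.05 against 0.01 over all genes, and no member reached an unadjusted p under 0.05, against 1.42% of all genes higher and 1.27% lower. Every adjusted p was 1.0 after rounding, and the members with the smallest unadjusted p were Nsf (0.19), Unc13a (0.15) and Syt7 (0.11) on the higher side and Syp (-0.28), Bsn (-0.29) and Syngr1 (-0.36) on the lower. Without the 2 P301S+ TREM2+/+ females, Unc13a stood at -0.22, Bsn at 0.01 and Syngr1 at -0.16, and in males alone Syngr1 stood at 0.07. Vamp2 and Napb lay below all P301S+ TREM2+/+ mice in all 4 heterozygotes, as did 1.46% of all genes, and no member lay above them all, as did 1.4%. With control replicate 3 out of the fit, Syngr1, Syp, Rims1 and Napb were lower by unadjusted p, against 3.71% of all genes, and none higher, against 6.57%. These are values of a design with 4 mice a side and do not show that the genotypes were alike.

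Loss of both alleles gave a median of -0.09 over the members against -0.02 over all genes, again with 14 positive and 19 negative. By unadjusted p, Nsf was higher, against 5.43% of all genes, and Bsn lower, against 4.47%, and 0.00832% of all genes passed the adjusted test. With control replicate 3 out of the fit, 3 members were higher by unadjusted p, against 13.1% of all genes, and 6 lower, against 10.6%. The vesicle genes leaned most to 1 side, with 8 of 9 negative and a median of -0.20, while the SNARE genes and regulators had 5 positive of 8 (median 0.05). Nsf was higher in every knockout than in every P301S+ TREM2+/+ mouse, as were 2.86% of all genes, and Syn1 and Vamp2 were lower, as were 4.76%. Without the 2 P301S+ TREM2+/+ females the median over the members was 0.06, and 0.03 with control replicate 3 left out too. The vesicle genes had 7 negative of 10 (median -0.12) without the females. That list also held Sv2c, which entered with 5.08 RPKM in control replicate 3 and at most 1.57 elsewhere. The counts over 9 and 10 vesicle genes are therefore not like for like.

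Between knockouts and heterozygotes, the median was 0.00 after rounding, against -0.03 over all genes, with 15 positive and 18 negative. Erc2 alone reached an unadjusted p under 0.05, on the higher side, against 1.94% of all genes higher and 1.48% lower. Snap25 joined it with control replicate 3 out of the fit, against 3.69% higher and 4.07% lower. Syt4, Nsf and Erc2 were higher in all 4 knockouts than in all 4 heterozygotes, as were 2.96% of all genes, and none was lower in this sense, as were 2.41%. Against controls, heterozygotes had 12 positive and 21 negative members (median -0.15, all genes 0.08), with 6 lower by unadjusted p against 3.2% of all genes, namely Erc2, Syp, Slc17a7, Rims1, Syt4 and Sv2b. None was higher, against 6.39%. With control replicate 3 out of the fit 6 were lower, against 3.78%. Syt4, Napb and Erc2 lay below all controls in all heterozygotes, as did 1.66% of all genes, and none lay above, as did 2.73%. Snap25 and Nsf joined them without control replicate 3, against 5.41% lower and 4.61% higher. Knockouts had 14 positive and 19 negative members against controls (median -0.14, all genes 0.08), with Syp, Vamp2, Dnm1 and Slc17a7 lower by unadjusted p, against 4.88% of all genes. No member lay wholly above or below the controls in knockouts, against 2.25% and 1.54% of all genes. When control replicate 3 was left out, the knockouts had 6 positive and 27 negative members, with a median of -0.10 against 0.01 over all genes. That count was 2 by unadjusted p, against 2.64% of all genes lower, and all adjusted p were at least 0.92.

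The 2 P301S+ TREM2+/+ females were then set against the libraries of all other mice. Relative to the other 13 libraries, control replicate 3 aside, both females lay above them all for Syngr1, Napb, Bsn and Amph, as for 8.84% of all genes. They lay below them for Syt4, Snap25, Nsf and Unc13a, as for 15.8%. The share of members outside in either direction was thus near that of all genes, 24.6%. Genotype differences were therefore also estimated within each sex, in a model with a separate mean for each genotype and sex (2 mice each). With all 16 libraries, complete loss gave 0 members past the adjusted threshold in females (1.14% of all genes higher, 0.208% lower) and 0 in males (0% of all genes). The P301S effect in females gave 3, with Slc17a6 higher at 1.29 (adjusted p = 0.0462; 3.6% of all genes higher) and Syt4 and Unc13a lower at -1.5 and -0.88 (adjusted p = 0.0378 and 0.0454; 2.35% of all genes lower). Control replicate 3 is 1 of the 2 control females behind these values.

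Without control replicate 3, which leaves the complete-loss differences as they are and lowers their standard errors, 7 members passed the threshold for complete loss in females. Snap25 rose by 1.45 (SE 0.26, adjusted p = 0.00245), Syt4 by 0.86 (SE 0.19, adjusted p = 0.00907) and Nsf by 0.59 (SE 0.12, adjusted p = 0.00592), against 13.1% of all genes higher. Bsn fell by 0.83 (adjusted p = 0.0114), Syngr1 by 0.70 (adjusted p = 0.00858), Syn1 by 0.57 (adjusted p = 0.0319) and Vamp2 by 0.51 (adjusted p = 0.0282), against 7.18% of all genes lower. The share of members called was thus near that of all genes called. In males no member passed (0% of all genes). The difference between the sexes was tested as an interaction: it passed for Snap25 alone, at 1.51 (SE 0.37, adjusted p = 0.0376), with 1.45 in females and -0.06 in males, while 4.74% of all genes passed. For Syt4 the interaction was 0.88 (adjusted p = 0.0951), for Slc17a6 -1.27 (adjusted p = 0.135) and for Bsn -0.73 (adjusted p = 0.165), which did not pass. With all 16 libraries the Snap25 interaction had the same size, an SE of 0.70 and an adjusted p of 0.692.

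Partial loss gave values of the same kind in the 2 females. Napb fell by 0.46 (adjusted p = 0.0235) and Syngr1 by 0.79 (adjusted p = 0.0102) without control replicate 3, against 2.32% of all genes lower. No member rose past the threshold, against 6.16% of all genes higher, and none passed in males (0%). No interaction with sex passed for partial loss among the members, with Syngr1 at -0.86 (adjusted p = 0.0582) and Snap25 at 1.42 (adjusted p = 0.0601), while 3.22% of all genes passed. The P301S effect in females was then called for Syngr1 and Doc2a higher (0.70 and 0.91, adjusted p = 0.0302 and 0.0468), against 4.84% of all genes. Snap25, Syt4 and Unc13a were lower at -1.47, -0.90 and -1.0 (adjusted p = 0.0118, 0.0271 and 0.0212), against 9.32%. That contrast rests on 1 control female, and no member passed in its interaction with sex, against 2.42% of all genes. All these female values share the same 2 P301S+ TREM2+/+ libraries, and a feature of those libraries and an effect of sex cannot be told apart.

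**Figure D4:**
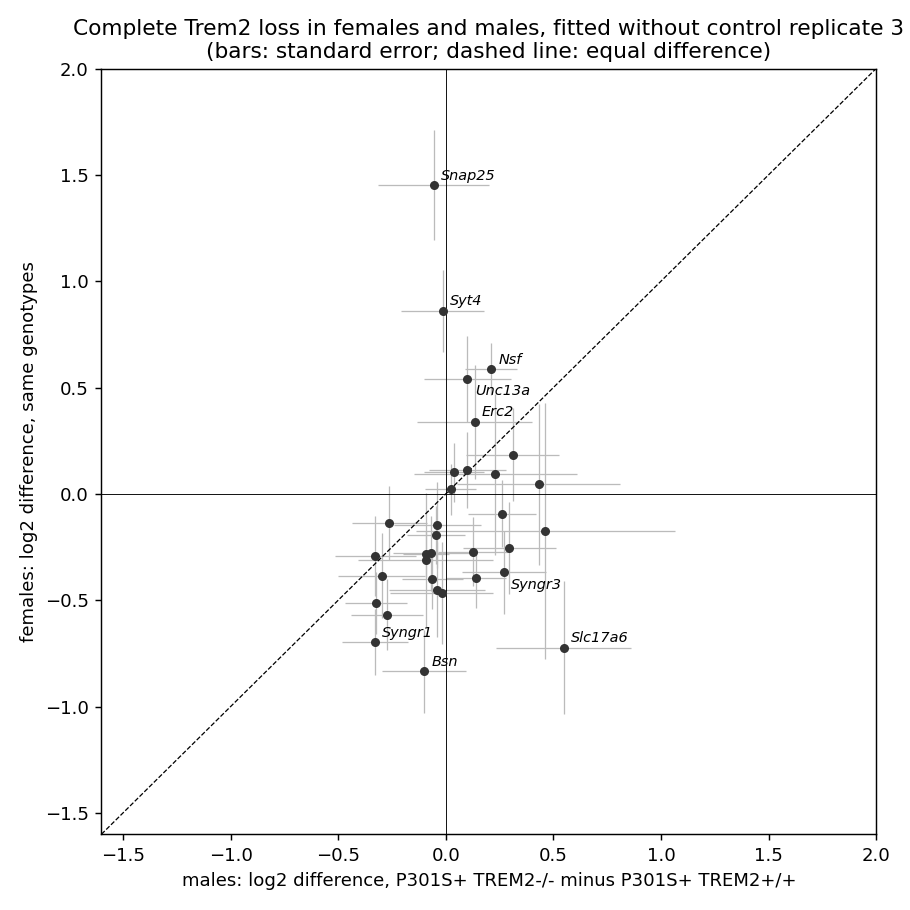
Each point is a tested member, with its log2 difference between knockouts and P301S+ TREM2+/+ mice in males on the horizontal axis and in females on the vertical axis, fitted without control replicate 3 (2 mice per genotype and sex; bars are standard errors). Snap25 lies at 1.45 in females and -0.06 in males, far from the dashed line of equal differences, and most other members lie near it or below it.

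Markers of the cells and neighbouring regions that a cortical sample can hold were summed as reads per M. The 9 pan-neuronal markers were at 4220 to 5070 in controls without replicate 3, 3950 to 4950 in P301S+ TREM2+/+ mice, 4000 to 4860 in heterozygotes, 3810 to 4340 in knockouts and 7700 in control replicate 3, all above 0 in every library. The 6 excitatory markers were at 5780 to 11400 in those controls, 3740 to 6500, 2840 to 8190 and 4590 to 8070 in the 3 P301S genotypes, and 17200 in control replicate 3. Neuronal markers were thus present throughout, and their ranges overlapped between genotypes. The 6 astrocyte markers were at 5230 to 6300 in controls without replicate 3, 6600 to 9520 in P301S+ TREM2+/+ mice, 6720 to 8470 in heterozygotes and 5760 to 7990 in knockouts, with the first 2 P301S genotypes above those controls. The 6 microglial markers were at 300 to 324, 389 to 503, 291 to 751 and 294 to 527 in the same order. The 4 endothelial markers were at 55.2 to 66.1, 70.1 to 84.3, 64.2 to 86.4 and 57.1 to 67.0. Both lists also separated P301S+ TREM2+/+ mice from those controls. Control replicate 3 was at 859 and 89.6, above every other library, so neither list separated them from all controls. The 6 oligodendrocyte markers were at 2200 to 2620, 2300 to 3490, 2850 to 3510 and 3170 to 4590 in controls without replicate 3, P301S+ TREM2+/+ mice, heterozygotes and knockouts. With control replicate 3 at 1540, heterozygotes and knockouts lay above all controls in this list. Striatal markers (7 of 8 found, with Drd2 at 0 in some libraries) were at 406 to 1710 in those controls and 1410 to 2560 in P301S+ TREM2+/+ mice, and ranged from 672 to 3170 in knockouts. Choroid plexus markers were at 149 to 683, 284 to 2280, 92.1 to 759 and 180 to 1260 in the same order, with Folr1 and Aqp1 at 0 in some libraries. In the 2 P301S+ TREM2+/+ females, astrocyte markers stood at 8706 and 9520 against 7043 and 6604 in the males, and inhibitory neuron markers at 769 and 689 against 1446 and 958. The part of these values in the member differences was not tested.

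Other genes of the presynaptic terminal, 91 in a separate list of which 88 could be tested, also held no gene past the threshold in any of the 6 comparisons. In P301S+ TREM2+/+ mice against controls, 41 were positive and 47 negative (median -0.02, all genes 0.06), with 4 of 88 higher and 9 lower by unadjusted p, against 9.12% and 4.67% of all genes. The smallest unadjusted p on the lower side belonged to Pacsin1, an endocytic adapter (-1.21, SE 0.28, adjusted p = 0.265), Sncb, beta-synuclein (-0.94, SE 0.31, adjusted p = 0.269), and Rims3 (-1.10, SE 0.38, adjusted p = 0.269). On the higher side were Scamp1 (0.90, adjusted p = 0.323), Synpr, synaptoporin (0.65, adjusted p = 0.327), and Picalm, a clathrin adapter (0.997, adjusted p = 0.327). In the fit without control replicate 3, Pacsin1 stood at -1.05 (adjusted p = 0.116), Sncb at -0.56 (adjusted p = 0.153), Scamp1 at 0.37 (adjusted p = 0.196), Synpr at 0.39 (adjusted p = 0.321) and Picalm at 0.37 (adjusted p = 0.164), and Rims3 lay below the filter.

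For complete loss, the same list had 36 positive and 52 negative genes (median -0.07, all genes -0.02), with 4 higher and 2 lower by unadjusted p, against 5.43% and 4.47% of all genes. On the higher side, Sh3gl1, an endophilin, was at 1.30 (SE 0.35, adjusted p = 0.426). Its P301S+ TREM2+/+ females were the lowest of the series at 1.87 and 1.18 RPKM. The males, at 7.50 and 6.24, overlapped the knockouts (7.17 to 12.2). The difference without those females is not reported here. On the lower side, Dnajc5, the vesicle chaperone CSP alpha, was at -0.39 (SE 0.13, adjusted p = 0.426), Cacna1b, the N-type calcium channel, at -0.38 (SE 0.14, adjusted p = 0.426) and Syt9 at -0.40 (SE 0.20, adjusted p = 0.535). The lowest adjusted p of this list without control replicate 3 was 0.072 for complete loss.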

How the data were processed

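Per the labels' protocols, cortical RNA went through RNeasy kits and QuantSeq 3' library preparation onto a HiSeq4000. The submitters' processing notes name STAR, HTSeq, edgeR, limma and mm10, with neither versions nor roles. The authors deposited 1 RPKM value per gene and library, a read number divided by gene length and library size. The unit was read from the values: whole reads were recovered for 100.0% of 18911 genes above 0 (tolerance 1e-05 reads or a relative 3e-07), and 99.2% of their gene lengths came out whole. RPKM divides 3' reads by gene length, so levels were compared within a gene only. The recovered reads give each library's depth, cover counting error only, and carry no molecular identifiers. The 1 unnamed line of each file was dropped. No replicates were near copies (lowest chi-square per gene 6.87).

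Groups came from the sample descriptions and sex from its label. Limma 3.58.1 (R 4.3.3, trend) was fitted to log2(RPKM + 1) for 12015 genes with a mean of at least 1 RPKM, with genotype and sex over 16 libraries (11 residual degrees of freedom, 8 with a mean per genotype and sex). The pseudocount of 1 understates differences of low genes. P-values were adjusted by Benjamini-Hochberg across every tested gene (threshold 0.05). The script was tested on simulated data. Members, gene lists, markers and tests were chosen with earlier results of these data known. For each comparison the 3 members with the smallest p on either side were named, together with Syn1, Syp, Syt1, Snap25, Vamp2, Stx1a, Slc17a6, Slc17a7, Bsn and Dnm1 throughout. Other members were described by role or chosen after their values were seen. Of the other presynaptic genes, the 3 with the smallest p on either side were named for 2 comparisons, except some that are not reported here. Exons of Doc2a, Rab3a, Sv2b, Syn1, Syn2 and Synj1 overlap a gene on the opposite strand (GENCODE vM21). 31 other settings were tried. Omissions of the 2 P301S+ TREM2+/+ females, and of control replicate 3 in the model by sex, were added after seeing the data.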

Additional observations from a re-analysis of the deposited data

Results flagged for a closer look

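In 14 of 136 groups of 4 libraries (34 members, 4 genotypes), the lowest or highest value lay farther from its neighbour than Dixon's 95% limit allows, where chance gives about 1 in 20. Of these, 9 were control replicate 3, which was low for Syn1 (24.6 RPKM) and Vamp1 (23.1 RPKM). It was high for Sv2a (399 RPKM), Sv2b (115 RPKM), Sv2c (5.08 RPKM), Syngr1 (131 RPKM), Vamp2 (1509 RPKM), Cplx1 (542 RPKM) and Napb (413 RPKM). The other 5 were spread over 3 libraries. Knockout replicate 1 was high for Syp (72.5 RPKM) and Cplx1 (269 RPKM) and low for Doc2b (2.03 RPKM). P301S+ TREM2+/+ replicate 2 and heterozygote replicate 1 were high for Syt1 (1786 and 1877 RPKM).

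The effect of complete Trem2 loss on Snap25 differed between the sexes when control replicate 3 was left out, by a limma interaction of 1.51 on the log2 scale (adjusted p = 0.0376). It was 1.45 in females and -0.06 in males. With all 16 libraries the adjusted p was 0.692. Of all genes, 4.74% passed in the fit without control replicate 3. The female value rests on the 2 P301S+ TREM2+/+ females that stand apart, and a feature of those libraries and an effect of sex cannot be told apart.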

How the results depend on the processing

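No paired analysis was possible because the replicate numbers only name libraries in accession order and the labels do not pair mice between genotypes. Of 36 named gene differences under 31 other settings each (1116 values), 1094 kept their direction and side of the threshold. Another 4 passed the threshold only there and 18 changed sign, and 26 of the 36 never changed sign. These counts do not measure robustness, because leaving out a library of a genotype outside a comparison cannot change the log2 difference of that comparison. Keeping the side of the threshold meant not passing it, as no member passed in the main fit.

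The count of members past the adjusted threshold was 0 in all 7 tests whichever library was left out. It became 1 with array weights for the P301S effect and for complete loss (Nsf in both) and for heterozygotes against controls (Erc2), 1 with voom quality weights in the last comparison (Erc2), 3 in females for the P301S effect, and 1 for the sex interaction of complete loss without control replicate 3. Members also passed in females for complete loss, partial loss and the P301S effect in the model by sex without control replicate 3, as given above. Leaving out 1 library in turn, the median log2 difference of the members ranged from -0.21 to -0.0101 for the P301S effect, -0.0846 to -0.0127 for partial loss, -0.14 to 0.0071 for complete loss, -0.0489 to 0.0624 for complete against partial loss, -0.23 to -0.13 for heterozygotes and -0.21 to -0.0265 for knockouts against controls. The median of the P301S effect was -0.18 with median-ratio scaling. That of complete loss was -0.25 in females, 0.0557 without both P301S+ TREM2+/+ females and 0.0319 without these and control replicate 3.

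Signs changed as follows. In males, partial loss gave -0.26 for Unc13a and 0.0689 for Syngr1, complete loss -0.0557 for Snap25, heterozygotes against controls -0.0095 for Syn1, -0.0554 for Rab3a and -0.13 for Syt1, and knockouts against controls -0.12 for Synj1. Without both P301S+ TREM2+/+ females, partial loss gave -0.22 for Unc13a and 0.0082 for Bsn, and complete loss -0.0444 for Unc13a. With control replicate 3 left out too, the P301S effect was -0.0242 for Bsn, partial loss -0.22 for Unc13a, complete loss -0.0231 for Snap25 and -0.0474 for Unc13a, and knockouts against controls -0.0238 for Synj1. Synj1 was also at -0.0145 with array weights and -0.0114 with voom quality weights, and ranged from -0.024 (without control replicate 3) to 0.50 as libraries were left out in turn. The causes were not tested.

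Among all genes, the number past the threshold for the P301S effect, partial loss, complete loss, complete against partial loss, and heterozygotes and knockouts against controls was 0, 0, 1, 0, 0 and 0. It was 5, 0, 14, 2, 3 and 1 without control replicate 3, 197, 0, 690, 5, 131 and 4 with array weights, 0, 0, 0, 0, 1 and 1 with voom and 9, 0, 19, 7, 171 and 3 with voom quality weights. Any difference among the genotypes gave 0 and, in the same settings, 8, 76, 0 and 20. Depth limits Doc2a, Doc2b and Sv2c most.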
